A study of Mus musculus with 2 samples.

Results

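The MYC, MAX and MXD network was examined in mouse leukemia stem cells through 10 genes: Myc, Mycn, Mycl, Max, Mxd1, Mxd3, Mxd4, Mxi1, Mnt and Mlx. The genes were chosen by symbol, and all 10 were found among the 42462 gene rows that matched the GENCODE M21 annotation, 21474 of them protein-coding. The cells were described as leukemia stem cells from adult mice of 10 to 12 weeks infected with Friend virus, with males and females pooled, and as positive for CD34, CD133, Kit and Sca1. The labels do not name the strain and say only that a usable strain must have the sensitive allele of Fv2. The 2 libraries, made from poly(A) RNA and read from both ends, are biological replicates 1 and 2 of 1 group. Their biosamples differ but share a donor record, so differences between them may be technical in part, and no second condition was compared. The libraries held 23575315 and 22541765 expected counts (fragment numbers estimated per gene, whole or not). Levels are given as TPM, a length-corrected share of all transcripts in a library, which can be compared between genes.

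MYC proteins bind DNA only as a pair with MAX, through a basic region that reads the core E-box sequence CACGTG and a helix-loop-helix zipper that holds the pair together. The MXD proteins, MXI1 and MNT pair with the same MAX and bind the same sequence, but recruit SIN3 corepressors in place of the coactivators that MYC recruits. MLX is a MAX-like protein that pairs with MONDOA and the carbohydrate-response factor ChREBP and with some of the MXD proteins and MNT. In red cell precursors MYC is known for driving division, and its fall is part of terminal maturation, during which MXD genes are known to rise.

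Promoters of 4 of the 9 members with a promoter window in the RefSeq table contained CACGTG. The window ran from 250 bases before to 50 bases after the annotated start, on build GRCm38.p6, and the sequence is its own reverse complement, so both strands were covered. For comparison, the sequence was found in the promoters of 8.09% of all 27025 genes with a window, and in 12.5% of those of the 7120 protein-coding genes with 1 TPM or more in each library. By window, it was in 4 of 11 windows of the members and in 7.15% of all windows. These matches describe letters and not binding, which was not measured. They are shown because the E-box is the site that all MAX pairs have in common, and each is given as 30 bases in the direction of transcription, with the match in capitals and its first base counted from the RefSeq start:
Mnt (chr11:74830789-74830818, plus strand, match 123 bases before the start): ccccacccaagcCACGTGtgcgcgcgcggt
Max (chr12:76962234-76962263, minus strand, match 3 bases before the start): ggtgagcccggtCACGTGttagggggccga
Mlx (chr11:101087238-101087267, plus strand, match 40 bases before the start): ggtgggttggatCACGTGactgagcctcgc
Mxd4 (chr5:34187912-34187941, minus strand, match 219 bases before the start): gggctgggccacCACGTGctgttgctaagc

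The libraries were first checked against their labels. The sort markers were scarce, at 0.03 to 1.80 TPM on average over Kit, Cd34, Ly6a and Prom1, and 2 of the 4 had 1 TPM or more in each. All 8 erythroid markers did so, and they summed to 113862 TPM in replicate 1 and 224092 TPM in replicate 2. They did not move together: the alpha globin genes Hba-a1 (51056 and 133373 TPM) and Hba-a2 (22549 and 70181 TPM) were higher in replicate 2. The other 6 were lower there, among them the beta globin genes Hbb-bs (34716 and 18611 TPM) and Hbb-bt (1553 and 74.7 TPM). The transcription factor genes Klf1 (1605 and 1053 TPM) and Gata1 (308 and 75.0 TPM) were also among the 6. Markers of other cell types were also measured. Summed levels in replicates 1 and 2 were 921 and 1248 TPM over 7 macrophage markers, of which 5 reached 1 TPM in both libraries. The complement genes C1qa, C1qb and C1qc were higher in replicate 2, while Cd68 (78.7 and 25.5 TPM), Csf1r, Mertk and Adgre1 were lower there, and the median log2 ratio of the 7, on the TMM scale described below, was −0.90. They were 692 and 280 TPM over 5 B lineage markers, with 4 of them reaching 1 TPM, and 79.1 and 75.6 TPM over 5 T lineage markers, with 3 reaching it. The 5 megakaryocyte markers summed to 90.7 and 72.7 TPM, with 3 reaching 1 TPM, and the 6 neutrophil markers to 33.1 and 28.6 TPM, with 5 reaching it. Defining markers at 0 counts in replicate 2 were Prom1, Cd3d and Pf4, and none was at 0 in both. The part of these cells in the levels below was not tested, and in such bulk samples fewer cells of a type and less RNA per cell cannot be told apart.

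Nearly the whole network was expressed, and Myc was its most abundant member. Of the 10 genes, 9 had at least 1 TPM in both libraries, against 41.6% of all protein-coding genes. Myc (ENSMUSG00000022346.10, chromosome 15, 61985391 to 61990374) had 492.07 TPM in replicate 1 and 376.52 TPM in replicate 2, from 13494 and 13388 counts, or 434 ± 81.7 TPM (SD, n = 2). These values placed it at rank 239 and rank 299 among protein-coding genes. It held 62.8% and 52.8% of the summed TPM of the 10 genes and 99.7% and 99.4% of that of its own family. The other family members were near or under the detection level. Mycl (ENSMUSG00000028654.9, chromosome 4, 122995652 to 123002485), known from small cell lung cancer and dendritic cells, had 1.15 and 1.98 TPM from 72 and 127 counts. Mycn (ENSMUSG00000037169.10, chromosome 12, 12936093 to 12941914), known for its role in neural progenitors and in neuroblastoma, had 0.25 and 0.32 TPM from 12 and 16 counts. The exact Poisson 95% interval of the Mycn level ran from 0.129 to 0.437 TPM in replicate 1 and from 0.183 to 0.520 TPM in replicate 2, which covers counting error only.

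**Figure D1:**
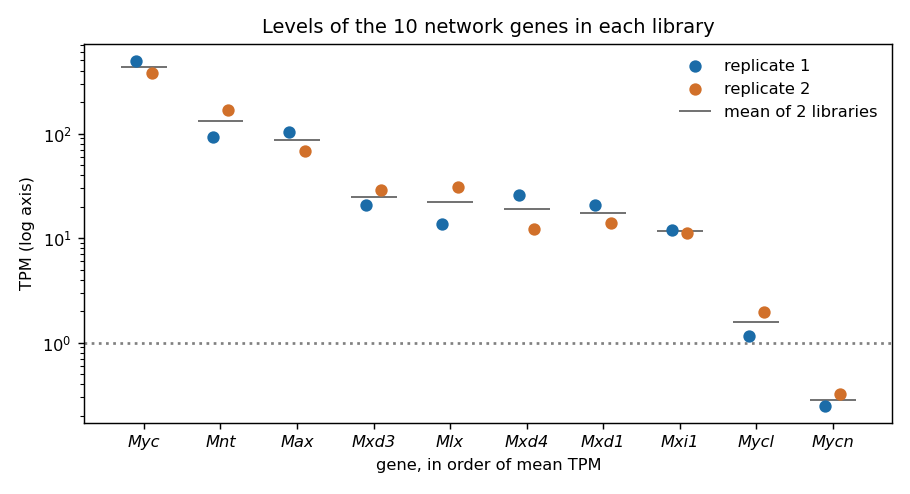
TPM (log axis) of each gene in replicate 1 (blue) and replicate 2 (orange), with the mean of the libraries as a bar and a dotted line at 1 TPM, in order of mean. Myc stood above the others in both libraries at 492.07 and 376.52 TPM, 5 genes from Mxd3 to Mxi1 lay between 11.26 and 30.71 TPM, and only Mycn was under the line.

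Max (ENSMUSG00000059436.8, chromosome 12, 76937269 to 76962201), the partner that MYC and the MXD proteins share, had 104.08 TPM in replicate 1 and 68.17 TPM in replicate 2, from 3812 and 2497 counts. It was thus present at less than the sum of the RNAs for its partners. The RNAs of the MYC family, the MXD genes, Mxi1 and Mnt together were 6.40 times that of Max in replicate 1 and 9.01 times in replicate 2. Myc alone was 4.73 and 5.52 times Max. These are ratios of RNA levels, and protein was not measured.

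Among the repressor genes Mnt was the most abundant. Mnt (ENSMUSG00000000282.8, chromosome 11, 74830920 to 74845725), a repressor known to be made in dividing as well as resting cells, had 92.82 TPM in replicate 1 and 169.49 TPM in replicate 2, from 5989 and 9713 counts. It held 53.8% and 72.0% of the summed repressor RNA. The MXD genes and Mxi1 lay lower and close to each other. Mxd3 (ENSMUSG00000021485.9, chromosome 13, 55325168 to 55329823), the member known to be made in S phase of dividing cells, had 20.75 and 28.54 TPM. Mxd4 (ENSMUSG00000037235.9, chromosome 5, 34173883 to 34187720) had 25.96 and 12.09 TPM. Mxd1 (ENSMUSG00000001156.7, chromosome 6, 86647042 to 86669161), which is known to be induced in maturing myeloid cells, had 20.95 and 14.05 TPM. Mxi1 (ENSMUSG00000025025.9, chromosome 19, 53310518 to 53375810), a target of hypoxia signalling in other cells, had 11.99 and 11.26 TPM. In TPM, Mxd3 was thus higher in replicate 2 and the other 3 in replicate 1, with Mxi1 nearly level and in the other direction by scaled counts, as given below. Mlx (ENSMUSG00000017801.11, chromosome 11, 101087277 to 101092207) had 13.49 and 30.71 TPM, although its counts were nearly the same, 295 and 282.

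In order of mean TPM the genes were Myc, Mnt, Max, Mxd3, Mlx, Mxd4, Mxd1, Mxi1, Mycl and Mycn. The values of neighbours overlapped between the libraries for Mnt and Max, which changed places, and along the run from Mxd3 through Mlx and Mxd4 to Mxd1, so the order within these groups was not resolved. Myc was apart from Mnt, Max from Mxd3, Mxd1 from Mxi1, Mxi1 from Mycl and Mycl from Mycn, with the lowest value of the higher gene above the highest of the lower. For Mxd1 and Mxi1 the gap was from 14.05 to 11.99 TPM.

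The summed RNA of the repressors Mxd1, Mxd3, Mxd4, Mxi1 and Mnt was smaller than that of the MYC family in both libraries. It was 172 TPM against 493 TPM in replicate 1, a ratio of 0.3495, and 235 TPM against 379 TPM in replicate 2, a ratio of 0.621, or 0.485 ± 0.192 (SD, n = 2). The higher ratio in replicate 2 came with more Mnt and also with a lower MYC family sum, while the MXD genes and Mxi1 summed to 79.7 and 65.9 TPM. Part of the Mnt difference lay in the short non-coding model Mnt-203, with 28.99 and 69.48 TPM. The lower MYC sum came with nearly level Myc counts, 13494 and 13388. With transcripts annotated as protein-coding only, an alternative chosen after the values had been seen, the ratios were 0.276 and 0.410. With expected counts, which are not corrected for length, they were 0.806 and 0.987. In all of these the repressor sum was below the MYC sum.

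**Figure D2:**
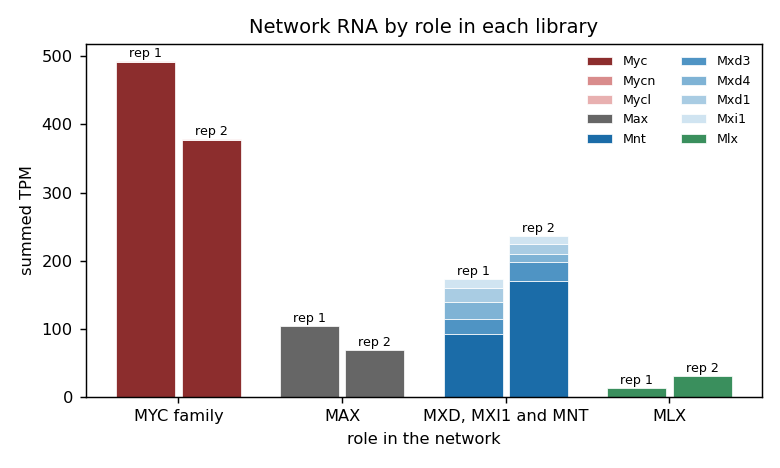
Summed TPM of the MYC family, Max, the repressor genes and Mlx in each library (left bar replicate 1, right bar replicate 2), stacked by gene. The MYC family bars, 493 and 379 TPM, were almost wholly Myc, and the repressor bars, 172 and 235 TPM, were led by Mnt.

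The transcripts behind these levels were examined next. The tables held 37 transcripts of the 10 genes, 11 of them with 0 expected counts in both libraries, and Mxd1 had only 1. In 9 of the 10 genes the same transcript held the largest share of TPM in both libraries, and Myc was the exception. A transcript's share is the authors' estimate from reads that the forms largely have in common. Of the 37 transcripts, 29 had the same length in the tables as in M21, from which exon positions were taken. Lengths differed for both Max transcripts, all 3 Mxi1 transcripts, Mxd1-201, Mycn-201 and Myc-207, so positions for these are those of M21 and may differ from the models used by the authors.

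Myc RNA was assigned to a different leading form in each library. Myc-208, a model of 1362 bases that holds little more than the coding sequence, took 80.1% of Myc TPM in replicate 1 and 26.8% in replicate 2, from 9572 and 2447 expected counts. Myc-202, a model of 2186 bases, took 17.1% and 68.7%, from 3415 and 10506 expected counts. Myc-208 lies wholly inside Myc-202, which has another 358 bases before it and 466 bases after it, and the forms have the same exon junctions. Together they held 97.2% and 95.5% of Myc TPM and 12986 and 12953 expected counts, so their unscaled counts were nearly level while the split between them differed. Their summed TPM was 478 in replicate 1 and 360 in replicate 2. A shorter model gives a higher TPM for the same count, and the TPM of Myc was higher in the library with more Myc-208 while its counts were nearly level.

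Myc exon 2 begins at either of a pair of acceptor positions 3 bases apart in the annotation. The forms with the later start, 61987510, held 97.2% and 95.5% of Myc TPM. Those with the earlier start, 61987507, held 2.32% and 2.24%. In these, Myc-201 and Myc-205 have the same sequence and differ only in the annotated start of translation, and each was given the same 248 and 185 expected counts. The split between these forms therefore has no measured content, and initiation at the upstream start known for MYC cannot be read from it.

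Max is known as a long and a short protein form, which differ by a small insert next to the basic region. Max-202 has an exon that Max-201 lacks, and this exon is shown because it is the coding difference between the forms, as read from M21:
Max-202 (chr12:76961263-76961289, minus strand, coding exon): gaagagcaaccgaggtttcaatctgcg
The exon has 27 bases, and the lengths of the 2 models in the tables also differed by 27 bases. Max-201, without the exon, held 68.35% and 72.6% of Max TPM. Max-202 held 31.65% and 27.4%, from 1218 and 691 expected counts. The short form led in both libraries.

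A coding exon was also the difference between the Mxd4 forms. Mxd4-202 lacks an exon of 30 bases that Mxd4-201 has. In the MXD genes this small exon encodes the beginning of the basic region, which contacts the E-box. It is shown beside the exon of the same length in Mxi1, with the bases that are the same in both in capitals, 22 of 30:
Mxd4-201 (chr5:34184314-34184343, minus strand, coding exon): gTCTtCACACAAcGAacTaGAAAAGcACaG
Mxi1-201 (chr19:53346451-53346480, plus strand, coding exon): aTCTaCACACAAtGAgtTgGAAAAGaACcG
Mxd4-202 held 34.5% and 33.8% of Mxd4 TPM in replicates 1 and 2, although the gene's level differed between them. It had 182 and 82.7 expected counts, or 12.6% and 12.2% of the gene's counts, and its model is 1160 bases long against 3872 for Mxd4-201. Its 3 prime end lies inside the last exon of Mxd4-201.

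Mxi1 RNA was assigned to 2 of its 3 forms. Mxi1-201, whose first exon starts at 53310518, held 65.3% and 70.5%, from 777 and 791 expected counts. Mxi1-202, which starts at 53329458, held 34.7% and 29.5%, from 400.0 and 320.2 expected counts. Mxi1-203, the form that M21 tags as principal, starts at 53329413 and had 0 expected counts in both libraries. All 3 models differed in length between the tables and M21, for Mxi1-203 by 4843 against 2340 bases, so the value of 0 applies to the model in the tables.

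Part of the Mnt and Mxd3 RNA was assigned to transcripts annotated as not coding. Mnt-201, the full-length coding form, had 63.82 TPM in replicate 1 and 100.01 TPM in replicate 2, or 68.8% and 59.0% of the gene. Mnt-203, a retained-intron model of 777 bases, held 31.2% and 41.0%, from 369 and 878 expected counts. It has 37 bases of intron before exon 2 of Mnt-201 and then follows the exons of that form, so that 95.2% of its words of 25 bases were also in Mnt-201. Mnt-201 itself was higher in replicate 2, by a log2 ratio of 1.12 on the scale used for genes below. In Mxd3, the coding form Mxd3-201 held 64.7% and 62.8%, and the rest was assigned to the processed transcript Mxd3-202 (19.7% and 27.5%) and the retained-intron transcript Mxd3-203 (15.5% and 9.72%).

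Mlx showed how far a short model can carry a TPM value. Mlx-207, an incomplete model of 403 bases with an effective length of 271 and 263 bases, held 43.6% of Mlx TPM in replicate 1 and 87.2% in replicate 2, from 31.4 and 140 expected counts. Without it Mlx had 7.61 and 3.94 TPM, a difference in the other direction. Mlx-201, the longest coding form, had 3.99 and 3.83 TPM, from 145 and 139 expected counts. Mlx-202 and Mlx-203 had 81.1 and 38.0 expected counts in replicate 1, and 3.79 and 0 in replicate 2. Mlx-207 and Mlx-203 lack a coding exon of 90 bases that Mlx-201 and Mlx-202 have, and forms without it had 23.5% and 49.5% of the gene's counts. The exon is shown because its presence is what separates these forms:
Mlx-201 (chr11:101088236-101088325, plus strand, coding exon): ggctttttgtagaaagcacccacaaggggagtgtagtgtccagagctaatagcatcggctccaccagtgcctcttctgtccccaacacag

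**Figure D3:**
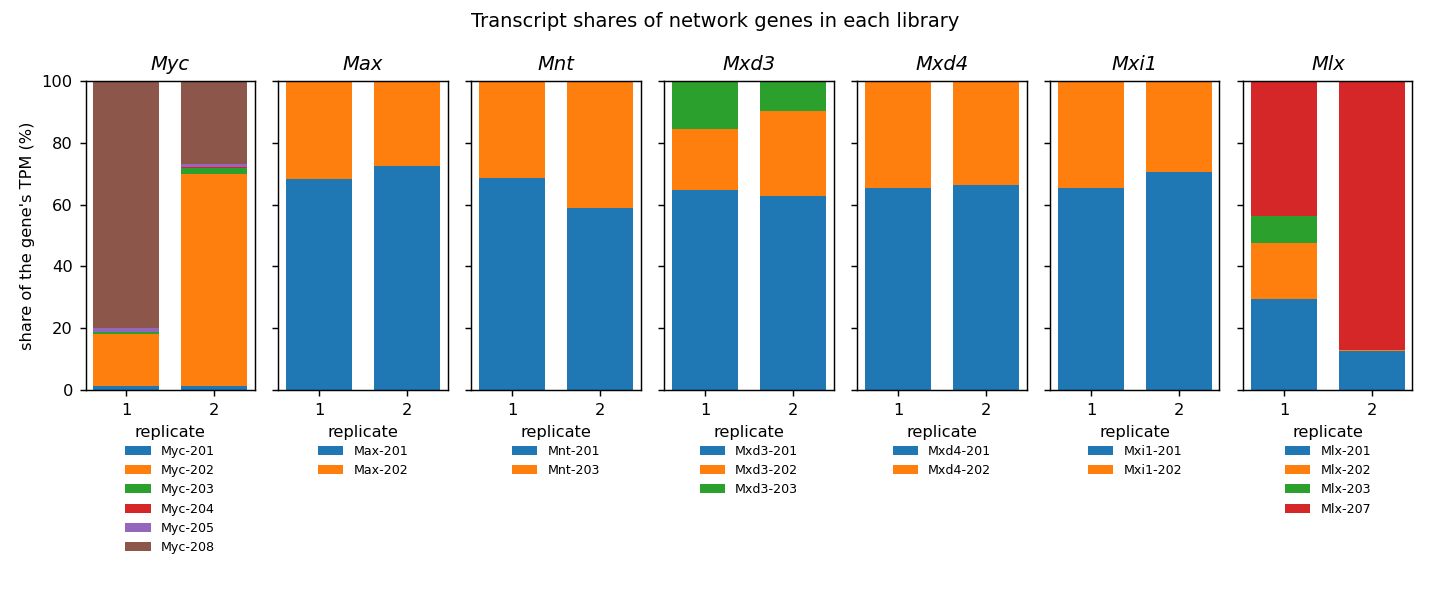
Share of each gene's TPM (%) held by its transcripts in replicates 1 and 2, for 7 genes with more than 1 transcript, leaving out transcripts at 0 in both. Max, Mxd4 and Mxi1 kept similar shares in both libraries, while Myc-208 went from 80.1% to 26.8% of Myc and Mlx-207 from 43.6% to 87.2% of Mlx.

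Other genes could take reads from some members, as the setting for strand in the authors' counting is not given in the sources used here. Mlx overlaps Psmc3ip on the opposite strand by 385 bases, and Psmc3ip had 314 and 265 counts, about as many as Mlx. Mxd3 overlaps Prelid1 on the opposite strand by 105 bases, and Prelid1 had 6022 and 3447 counts against 464 and 595 for Mxd3. Levels of Mlx and Mxd3 are thus uncertain where the genes overlap. Max and Mxd1 overlap genes on the same strand in M21, Gm47218 by 1319 bases and Gm44292 by 2364 bases. Mxd4 and Mxi1 overlap genes on the opposite strand, Gm42846 by 1001 bases and AC133451.2 by 5146 bases. These overlapping genes were not among the matched rows, so their counts are not known. Myc, Mycn, Mycl and Mnt overlapped no other gene in M21.

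The libraries were then compared with each other, as a description of the spread between replicates. Counts were scaled by the trimmed mean of M-values (TMM) of edgeR over all matched genes, and a gene was called apart when the exact 95% counting interval of its ratio was wholly outside 2-fold. Ratios of TPM, used as an alternative, have no such interval and were called where the ratio itself was beyond 2-fold, a looser rule. The 1 member apart of 10 was Mnt, higher in replicate 2 by a log2 ratio of 1.17 (interval 1.12 to 1.21). Over the 11708 protein-coding genes with 20 or more counts in the 2 libraries together, 23.2% were apart, 8.34% higher in replicate 2 and 14.9% higher in replicate 1. Replicate 2 was the higher library for 36.0% of the calls with TMM and for 12.0% with total-count scaling. The call of Mnt rested on the scaling, since its log2 ratio was 0.76 with total-count scaling and 0.87 as a ratio of TPM, both short of 2-fold. An absolute ratio larger than that of Mnt was found in 29.7% of protein-coding genes.

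Differences of the other members were smaller or less certain. Mycl had a log2 ratio of 1.28 (0.86 to 1.73) and Mxd3 one of 0.83 (0.65 to 1.01), while Mxd4 was lower in replicate 2 at −0.62 (−0.75 to −0.49). Max was at −0.14 and Mxd1 at −0.10, values that 89.5% and 92.4% of protein-coding genes exceeded in size. Myc was at 0.46 (0.42 to 0.49), but at 0.05 with total-count scaling and at −0.39 as a ratio of TPM, so its direction depended on the scaling. Mxi1 (0.39) and Mlx (0.40) likewise were at −0.02 and −0.000559 with total-count scaling, and were −0.09 and 1.19 as ratios of TPM. The median of all protein-coding genes moved from −0.06 with TMM to −0.47 with total counts and −0.44 with TPM. A change of scaling factor moves all genes alike, so only the ratio of TPM could change a gene's place relative to that median. In both TMM-scaled counts and TPM, Max, Mxd1 and Mxd4 were below the median and the other 7 genes above it, Myc by 0.52 and 0.05 on the log2 scale.

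**Figure D4:**
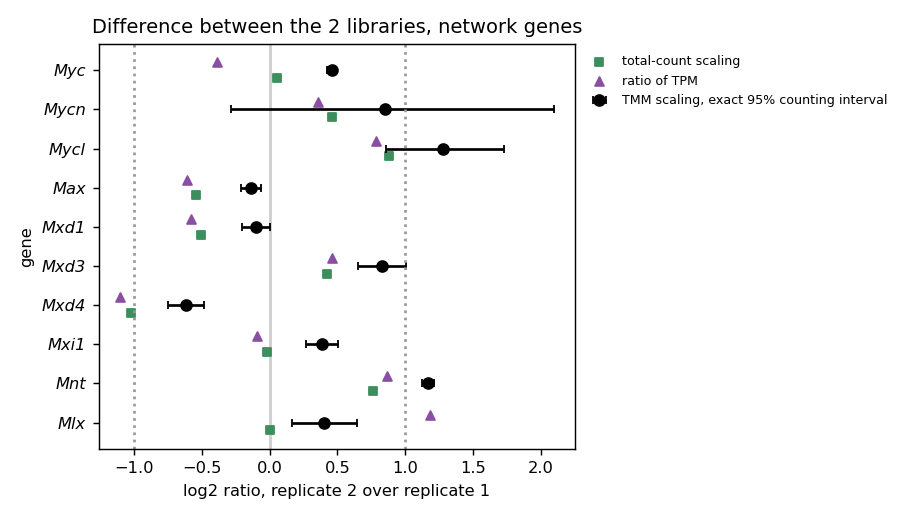
Log2 ratio of replicate 2 over replicate 1 for each gene with TMM scaling (black, exact 95% interval for counting error), total-count scaling (green squares) and as a ratio of TPM (purple triangles), with dotted lines at 2-fold. Only Mnt, at 1.17, had its interval wholly past a dotted line, and Myc moved from 0.46 to −0.39 with the scaling.

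Other proteins that read the E-box or join the network were measured as well. Of 9 such genes, 6 reached 1 TPM in both libraries, against 41.6% of all protein-coding genes. The most abundant were Usf2 (190 and 172 TPM) and Tfeb (85.9 and 134 TPM), followed by Tfe3 (75.2 and 26.7 TPM) and Zbtb17 (36.4 and 32.4 TPM). USF2 is an E-box factor outside the MAX network, TFEB and TFE3 control lysosomal genes, and ZBTB17 is the MIZ1 protein through which MYC represses. For the partners of MLX, Mlxip, which encodes MONDOA, had 24.3 and 14.4 TPM, and Mlxipl, which encodes ChREBP, 0.06 and 0.62 TPM from 3 and 32 counts. Mga, a large repressor that pairs with MAX, had 3.21 and 0.73 TPM. Apart and higher in replicate 2 were Tfeb and Mlxipl, and apart and higher in replicate 1 were Tfe3 and Mga. These 4 of 8 genes with enough counts compare with 23.2% over all protein-coding genes. The calls higher in replicate 2 fell to 1 with total-count scaling or ratios of TPM, and those higher in replicate 1 to 1 with DESeq2 size factors. The list's median log2 ratio was −0.02, against −0.06 over all protein-coding genes.

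Genes for the partners through which the network acts were abundant on both sides. All 12 MYC coactivator genes had 1 TPM or more in each library, against 41.6% of all protein-coding genes. Among the most abundant were Hcfc1 (376 and 174 TPM), Ruvbl2 (151 and 164 TPM) and Ep400 (130.2 and 78.0 TPM). The median log2 ratio of the 12 was −0.29. Hcfc1, Cdk9 and Ruvbl1 were higher in replicate 1, at log2 ratios of −1.95, −1.18 and −1.50, and the acetyltransferase gene Kat5 was higher in replicate 2, at 1.16. These 4 of 12 genes compare with the same 23.2%, and Kat5 was not called with total-count scaling or as a ratio of TPM. All 11 corepressor genes also had at least 1 TPM in each library, among them Sap18 (178 and 262 TPM), Ncor1 (85.8 and 119 TPM) and Rbbp7 (44.3 and 67.9 TPM), with a median log2 ratio of 0.11. The SIN3 genes, which encode the scaffolds that MXD proteins bind, had 38.1 and 11.9 TPM for Sin3a and 16.9 and 30.3 TPM for Sin3b, in opposite directions. With TMM they were not called apart, at −1.03 and 0.64. Sin3a was called higher in replicate 1 with total-count scaling or as a ratio of TPM, when such calls also rose over all protein-coding genes.

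Of 14 genes known to act on the stability or activity of MYC protein, 12 reached 1 TPM in both libraries. The share over all protein-coding genes was 41.6%. Pim1, a kinase gene induced by cytokines, led with 125 and 183 TPM, followed by Ppp2r5a (58.3 and 60.1 TPM), Usp36 (48.6 and 45.4 TPM) and Pim2 (42.7 and 38.3 TPM). Fbxw7, the ubiquitin ligase subunit that marks phosphorylated MYC, had 8.53 and 10.3 TPM. Gsk3b, the kinase that prepares that mark, was apart and higher in replicate 2 (1.11). Higher in replicate 1 were the ubiquitin ligase genes Huwe1 (−1.24) and Skp2 (−1.61) and the phosphatase inhibitor gene Cip2a (−3.41). These 4 of 14 genes were again set against 23.2%. The calls higher in replicate 2 numbered 0 with total-count scaling or ratios of TPM and 2 with DESeq2 size factors. The list's median log2 ratio was 0.29.

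Genes known to be activated by MYC were abundant in both libraries. Of 30 such genes, 28 reached 1 TPM in both, against 41.6% of all protein-coding genes. The list's median TPM was 112 in replicate 1 and 76.9 in replicate 2. Over all protein-coding genes, most of which did not reach 1 TPM in both libraries, the median was 0.65 and 0.34 TPM. Ran, the nuclear transport GTPase, had 4849 and 5875 TPM, Cdk4, the G1 kinase, 1795 and 1022 TPM, Cad, the first enzyme of pyrimidine synthesis, 623 and 553 TPM, and Pa2g4 690 and 467 TPM. The exceptions were Tert, the telomerase catalytic subunit, at 0.17 and 0.03 TPM, and Eif4e, the cap-binding protein, at 2.62 and 0.28 TPM.

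Between the libraries the activated genes had a median log2 ratio of −0.25, a difference of −0.18 from the median of all protein-coding genes. Of 29 activated genes, 9 were above 0 and 20 below, against 5577 above and 6131 below of the 11708 protein-coding genes. Higher in replicate 1 were 6 genes: Ccnd2 (−1.67), Hspd1 (−1.17), Npm1 (−1.93), Nop58 (−1.58), Gnl3 (−2.27) and Eif4e (−2.74). The ribosome biogenesis gene Rrs1 (1.40) and the RNA polymerase I subunit gene Polr1b (1.16) were higher in replicate 2, but neither was called with total-count scaling or as a ratio of TPM. These 8 of 29 genes, or 27.6%, compare with 23.2% over all protein-coding genes, a share near the background. Npm1, Hspd1, Eif4e and the coactivator gene Ruvbl1 had counts that were not whole in replicate 1, as when reads are divided among similar genes, so their values are uncertain. The same holds for other genes named in this report, among them Ep400, Sap18, Eif4a1, Nme1 and Pvt1.

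Among the 24 activated genes with a promoter window, 8 had CACGTG in it, against the 12.5% given above. Cdk4 had 4 matches in its promoter and is shown because no other activated gene had as many, together with Ran, the most abundant of the list, in the same form as above:
Cdk4 (chr10:127063351-127063380, plus strand, match 172 bases before the start): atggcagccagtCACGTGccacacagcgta
Cdk4 (chr10:127063405-127063434, plus strand, match 118 bases before the start): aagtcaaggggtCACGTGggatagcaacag
Cdk4 (chr10:127063425-127063454, plus strand, match 98 bases before the start): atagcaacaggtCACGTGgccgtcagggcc
Cdk4 (chr10:127063512-127063541, plus strand, match 11 bases before the start): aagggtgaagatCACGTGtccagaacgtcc
Ran (chr5:129020026-129020055, plus strand, match 118 bases before the start): gctcggccggccCACGTGacccgccgcccc
The promoters of Eif4a1, Mybbp1a, Nme1, Hspd1, Apex1 and Eif4e were the others with a match. Eif4e, with 1.45 TPM on average, was the second least abundant gene of the list. Among 10 MYC-repressed genes with a window, 3 had the match.

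Genes known to be repressed by MYC were measured at lower levels than the activated genes, with several CDK inhibitors among the higher ones. Of 12 genes, 10 had 1 TPM or more in each library, against 41.6% of all protein-coding genes. Their median TPM was 6.89 and 8.00, which is above the 0.65 and 0.34 TPM over all protein-coding genes. By mean TPM the growth arrest gene Gadd45a led, with 62.8 and 152 TPM, although in replicate 1 it was below the next 3. These were the CDK inhibitor genes Cdkn2c (77.2 and 94.6 TPM), Cdkn1b (66.9 and 57.8 TPM) and Cdkn1a (75.6 and 43.2 TPM). The CDK inhibitor genes Cdkn2b (1.77 and 2.09 TPM) and Cdkn1c (0.37 and 0.49 TPM) were low. Gadd45a (log2 ratio 1.74) and Gadd45b (3.84 and 7.88 TPM) were apart and higher in replicate 2, and no gene of the list was apart and higher in replicate 1. These 2 and 0 of 12 genes compare with 8.34% and 14.9% over all protein-coding genes, and they were 1 and 2 with total-count scaling and 2 and 1 as ratios of TPM. The median log2 ratio was 0.56, or 0.62 above that of all protein-coding genes. Of the 5 genes that MLX pairs are known to control, Pklr, the red cell pyruvate kinase, had 597 and 281 TPM and Fasn, fatty acid synthase, 253 and 66.0 TPM. Fasn was the 1 gene of the 5 apart, higher in replicate 1 (−1.43), where 14.9% of all protein-coding genes were so called. With total-count scaling or ratios of TPM, 3 of the 5 were called. Over all protein-coding genes such calls numbered 1740 with TMM, 2703 with total counts and 3778 with ratios of TPM. Txnip, a textbook MONDOA target, had 7.50 and 2.03 TPM, and Arrdc4 0.94 and 0.56 TPM. Pvt1, the non-coding gene beside Myc and a known site of retroviral insertion, had 2.06 and 1.18 TPM.

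**Figure D5:**
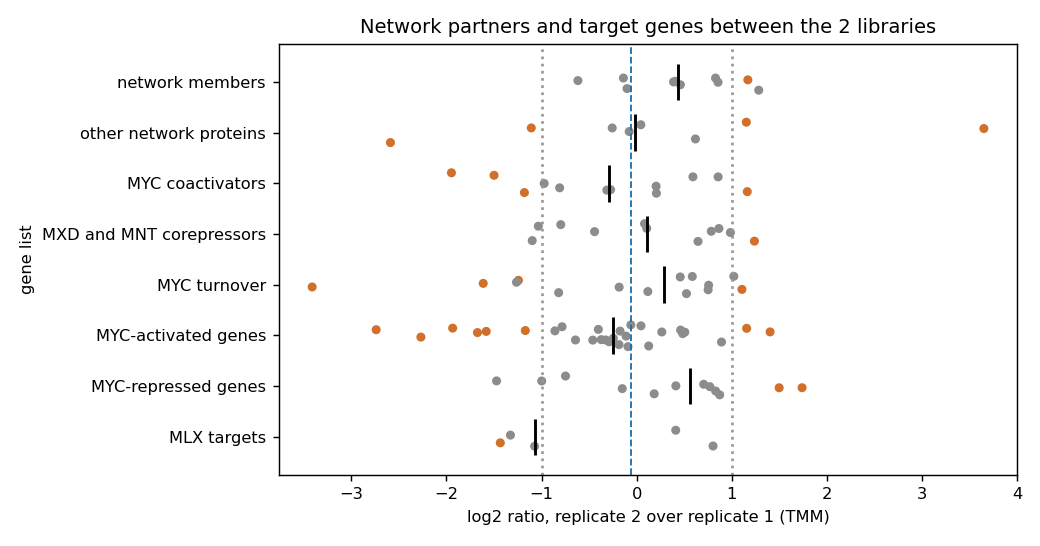
Log2 ratio of replicate 2 over replicate 1 (TMM) for the genes of each list with 20 or more counts in the libraries together, orange where the gene was called apart, with the list's median as a black bar, the median of all protein-coding genes (−0.06) as a dashed line and 2-fold as dotted lines. The medians ran from −1.07 for the MLX targets to 0.56 for the MYC-repressed genes, and every list had genes on both sides of 0.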

How the data were processed

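The authors deposited expected counts, TPM, FPKM and posterior mean TPM for each gene and transcript of both libraries, and the percent of a gene's TPM held by each transcript, on mm10 with GENCODE M4 models, as a readme beside the tables states. Which aligner and quantifier made them is not given in the sources used here, though RSEM writes columns of these names. The deposited interval bounds and posterior SDs, listed as signal values, were not used. A table had 69691 rows, of which 43346 had an Ensembl identifier and 42462 matched M21, which gave symbols, positions and transcript sequences. Promoter windows came from RefSeq on GRCm38.p6. Detection was 1 TPM in each library, and ratios were called for genes with 20 or more counts in total. Expected counts were rounded for edgeR 4.0.16 (TMM) in R 4.3.3, with DESeq2 1.42.0 size factors as an alternative. Log2 ratios used a prior count of 0.5 and exact binomial 95% intervals, and the calling rule was tested on simulated data. The simulated counts had counting error only. In the 2 libraries the biological coefficient of variation, the relative spread beyond counting error, was 0.56 by edgeR. The simulation therefore does not show how the rule behaves under such spread. With 1 group no p-value was computed. The intervals cover counting error only, and reads without molecular identifiers are not independent molecules. The members and lists were chosen with earlier results of these data known. Every member was named, and from each other list up to 4 most abundant genes, those apart and those with 0 counts in both libraries, of which there were none; some genes under this rule are not reported here. Other genes named (Sin3a, Sin3b, Mlxip, Fbxw7, Txnip, Arrdc4, Tert, Cdkn2b, Cdkn1c and those with an E-box match) were picked with their values known. Alternatives were other TPM minimums, units, scalings, count filters, prior counts and folds, and each library alone. Tables were handled in pandas 2.3.3 under Python 3.11.15, intervals in scipy 1.17.1 and plots in matplotlib 3.10.9.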

Additional observations from a re-analysis of the deposited data

How the results depend on the processing

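The number of members detected was 8 at 2 or 5 TPM and with FPKM, and 9 at 0.5 TPM, with posterior mean TPM, with TPM over nuclear protein-coding genes and in each library alone. The share of Myc in the members' TPM was 52.8% to 62.8% in single libraries. The ratio of repressor to MYC family RNA was 0.3495 to 0.621 in single libraries and 0.897 with expected counts, where the correction for length is missing. The number of members apart was 0 with total-count scaling and 3 (Mnt, Mycl and Mxd3) at 1.5-fold. It stayed at 1 with DESeq2 size factors, a prior count of 5, no filter or 100 counts. As a ratio of TPM, called without an interval, it was 2 (Mxd4 and Mlx). By that rule 895 protein-coding genes were higher in replicate 2 and 3778 in replicate 1. The share of all genes at 1.5-fold was not computed. The same leading transcript was found in 8 members by posterior mean shares or expected counts. A leading transcript over 50% was found in 9 members, in 7 by posterior mean shares, and in 9 to 10 in single libraries. Mean levels moved beyond the spread for Mycn with posterior mean TPM (0.42 TPM), Mxi1 with TPM over nuclear protein-coding genes (13.0 TPM) and Mlx without Mlx-207 (5.78 TPM), an alternative chosen after seeing the data.

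Calls in the lists followed the scaling, with the lists' detected counts within 1.5 times under every alternative run. With total counts, genes higher in replicate 2 were 1 other network protein, 0 coactivators, 0 corepressors, 0 turnover, 0 activated and 1 repressed genes. Higher in replicate 1 were 2 other network proteins, 4 coactivators, 3 corepressors, 4 turnover, 8 activated and 2 repressed genes, and 3 MLX targets. With ratios of TPM, the first 5 of these lists had 1, 0, 0, 0 and 0 genes higher in replicate 2, beside 2 repressed genes. The same 5 lists had 2, 4, 3, 4 and 8 genes higher in replicate 1, beside 1 repressed gene and 3 MLX targets. Over all protein-coding genes, the calls higher in replicate 2 and in replicate 1 were 977 and 1740 with TMM. They were 370 and 2703 with total counts and 895 and 3778 with ratios of TPM, so the calls of all genes shifted in the same direction. The causes of these shifts were not tested. With DESeq2 size factors 1 other network protein was higher in replicate 1 and 2 turnover genes in replicate 2. Mycn, with 12 and 16 counts, is the member that depth limits most. Leaving out a library leaves no ratio and no comparison of leading transcripts, so these have no such value.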
